A study of Mus musculus with 16 samples.

Results

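Livers of male mice on a high fat diet were compared with livers of male mice on normal chow, in 8 of the 16 libraries of the series and across the 14781 genes that passed a filter on low counts, of 78320 listed. The remaining 8 libraries are female livers on the same diets. They entered the fit to share the estimate of spread and gave the test of whether a diet change differed between the sexes. Each sex and diet had 4 libraries. All mice were wild type C57BL/6J, an inbred laboratory strain, bought from the Jackson Laboratory at 6 weeks of age, kept in groups with free access to food, and fed their diet for 10 weeks. The normal diet (NC) was LabDiet 5053, labelled as 4.5% of calories from fat, and the high fat diet (HF) was Research Diets D12492, with 60%. With a separate maker for each diet, differences other than fat content are possible. RNA came from powdered whole liver and was sequenced as poly(A) libraries, all labelled as batch 1. The hour of tissue collection is not given in the sources used here, and the labels do not say in words that the replicates are separate animals, so the p-values below measure only the spread between these libraries. Below, HF 1 to HF 4 and NC 1 to NC 4 are the male libraries by diet and replicate number, and 4 values given for a diet stand in that order.

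The liver takes up dietary fat and sterol, stores fat in droplets, exports it in lipoproteins, and adjusts its own synthesis through transcription factors that sense sterols, fatty acids and insulin. Hepatocytes make up most of its RNA and also carry the enzymes of drug, bile acid and amino acid metabolism, which are arranged in zones between portal and central veins. Resident macrophages (Kupffer cells), stellate cells, endothelial cells, bile duct cells and lymphocytes share the tissue, and a fatty liver is known for the arrival of monocyte-derived macrophages and for matrix production by stellate cells. In whole tissue, fewer cells of a type and less RNA per cell cannot be told apart.

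The male libraries held 22228115 to 29173327 counts (HF) and 24569706 to 38843167 counts (NC) (exact two-sided permutation test, p = 0.343). Hepatocyte markers were abundant in all of them, since the 16 genes of that list summed to between 70010 and 103800 CPM (counts scaled to a common library size) in every male library. HF 2 and HF 3 lay very close to each other. Their chi-square statistic per gene was 4.07, above the value of 1 that sampling noise gives, while the other pairs of the group had 55.6 to 307.9 and pairs of normal diet libraries 41.9 to 96.7. The labels do not say whether they share an animal or tissue powder; if they did, the group would hold fewer than 4 independent samples. They were kept as 2 libraries, as labelled, and each count below was also computed with them averaged into 1 library and with both left out, which leaves HF 1 and HF 4. The 10 pancreatic acinar markers, digestive enzymes that hepatocytes do not make, summed to 0.892, 31, 24.6 and 0.399 CPM in HF 1 to HF 4 and 0.165, 0.400, 0.173 and 0.298 CPM in NC 1 to NC 4. They were thus far higher in HF 2 and HF 3 than in any other male library. Of the genes named here with an annotation in GENCODE M21, 42 of 161 share exon bases with another gene, 37 of them with a gene on the other strand, and the strand setting of the counting is not given in the sources used here. Those with a named neighbour include Csad (Zfp740), Smpd3 (Prmt7), Cntnap1 (Plekhh3), Ccne2 (Ints8), Ddit3 (Mars), Sult1a1 (Sgf29), Nr1i3 (Tomm40l), Elovl3 (Pitx3) and Mmp12 (Mmp1b).

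Of the 14781 genes, 1684 (11.4%) were called, meaning an adjusted p under 0.05 in the quasi-likelihood test of edgeR with Benjamini-Hochberg adjustment over all tested genes. Of these, 891 (6.03% of tested genes) were higher on HF and 793 (5.36%) lower. Changes of at least 2-fold made up 542 of the calls (3.67%), 360 of them higher and 182 lower. With no scaling beyond library totals the split was 1358 higher and 472 lower, the median over all genes being 0.103 on the log2 scale, and with limma on log2(TPM + 1) it was 899 and 443. The median log2 fold change was 0.01 over all tested genes, 0.83 over the higher calls and -0.57 over the lower calls. The 4 HF libraries lay above all 4 NC libraries in 1378 genes (9.32%) and below them in 1350 (9.13%). Without NC 3 the count was 1118, the lowest of the 8 fits that left out a library, and without HF 1 it was 1931, the highest. Every adjusted p below comes from that edgeR test, and a call is said to be lost without a library where its adjusted p reached 0.05 or more in the fit without it.

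**Figure D1:**
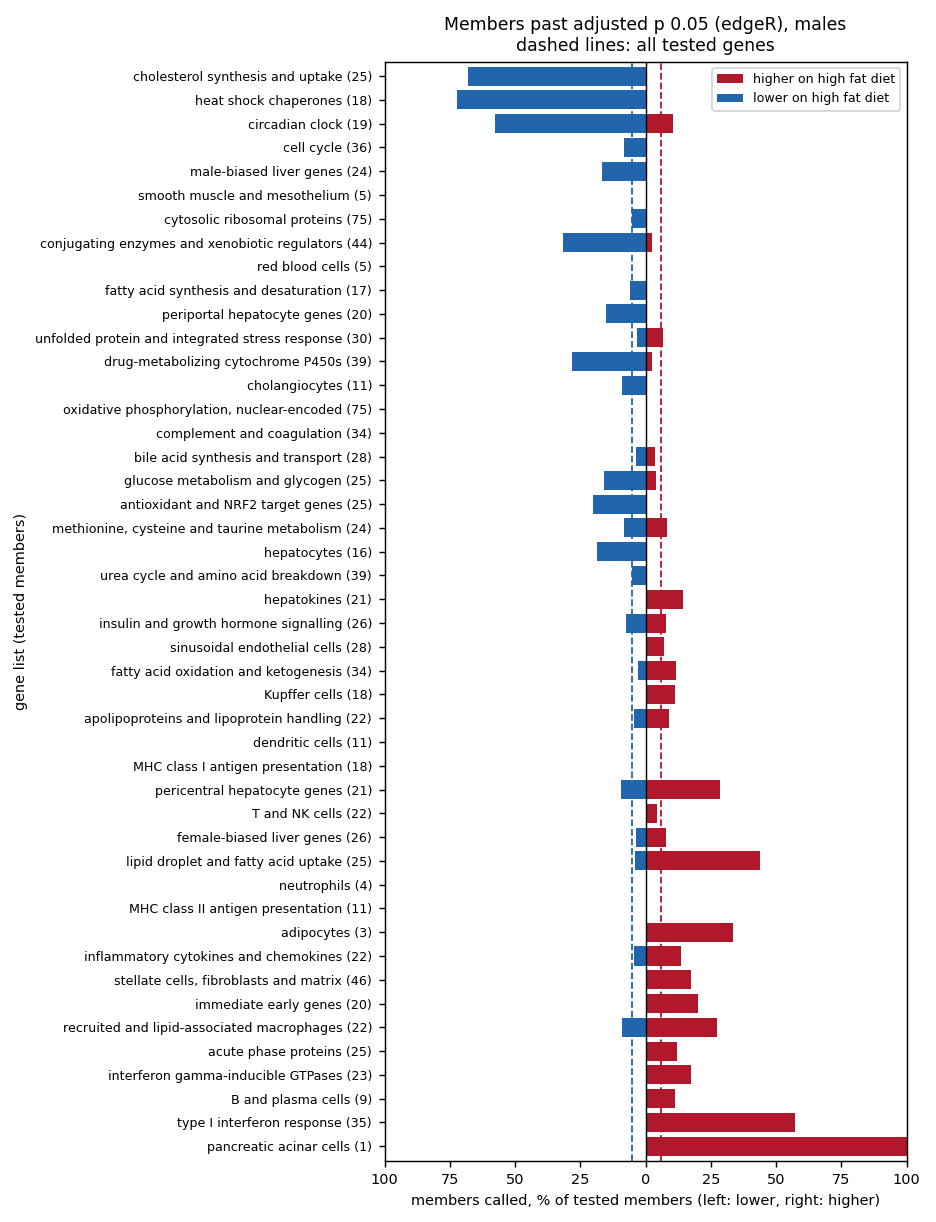
Members called higher (red, right) and lower (blue, left) on HF in males, as a percentage of tested members of each of 46 gene lists, whose number of tested members stands in parentheses. Dashed lines mark the 6.03% and 5.36% of all tested genes called in each direction; heat shock chaperones, cholesterol synthesis and the circadian clock reached furthest to the left, and type I interferon response furthest to the right among lists of more than 3 tested genes.

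Genes were read in 46 lists of pathways and cell type markers with 1077 distinct tested genes, of which 197 were called. The plot of members called shows them beside the shares of all genes. The heat map of list means by library shows that some lists moved alike in all 4 HF libraries, while others parted HF 1 and HF 4 from HF 2 and HF 3.

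**Figure D2:**
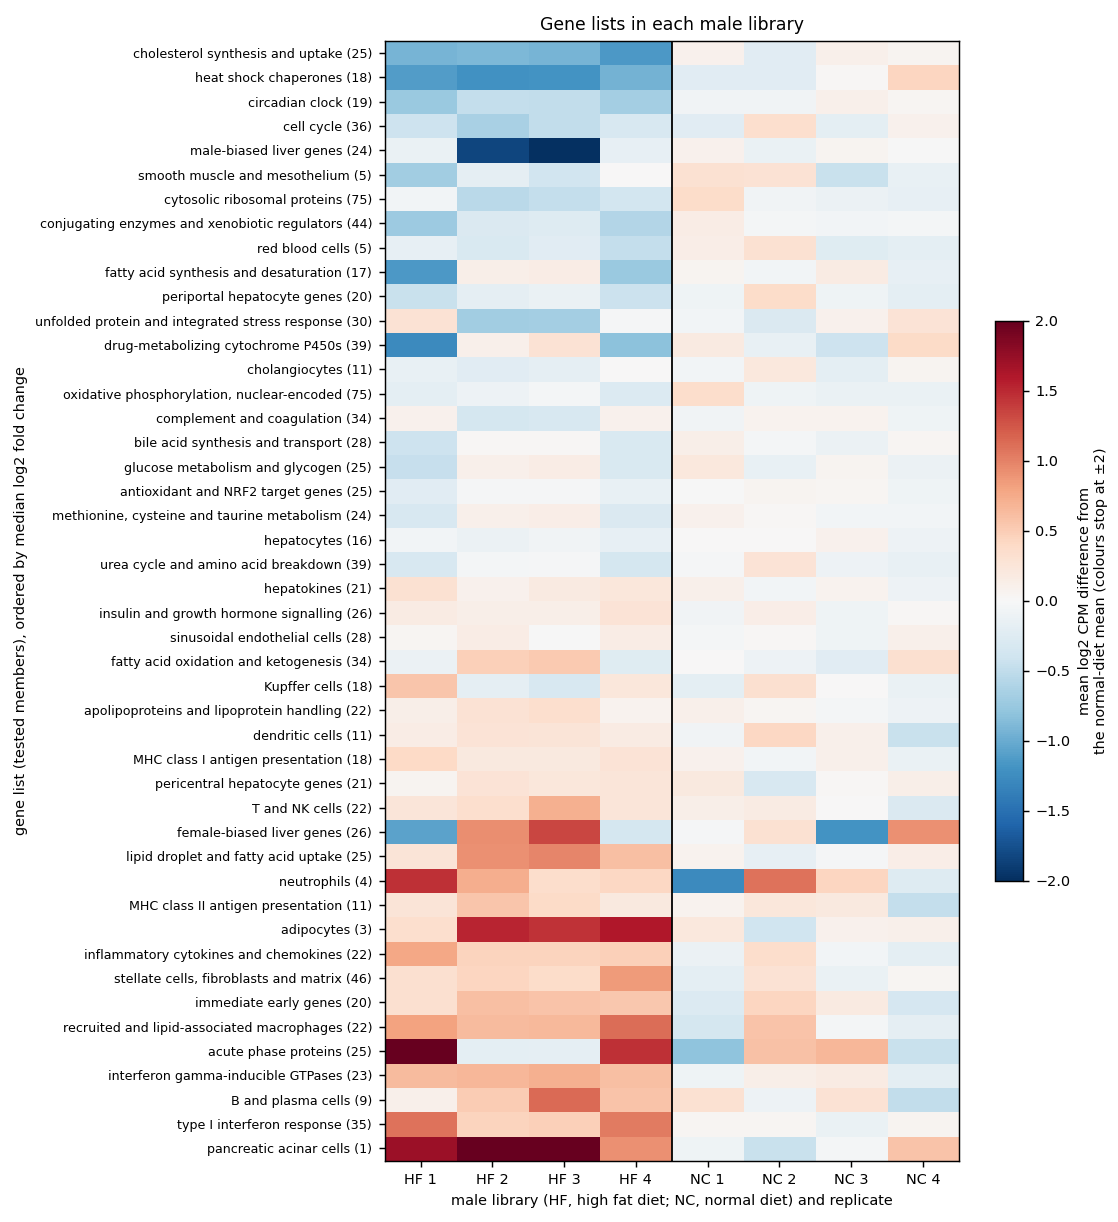
Mean log2 CPM difference of each gene list from its mean over the 4 normal diet libraries (colour, stopping at 2 in either direction), for each of the 8 male libraries (columns) and 46 lists ordered by median log2 fold change (rows). Cholesterol synthesis and heat shock chaperones are blue in all 4 high fat diet libraries, whereas acute phase proteins are reddest in HF 1 and HF 4 and male-biased genes are deep blue in HF 2 and HF 3 only.

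Sterol synthesis fell as a block. Of the 25 listed genes of cholesterol synthesis and uptake, 17 were called lower and 0 higher, and each of the 25 had a negative log2 fold change, with a median of -0.90 against 0.01 over all genes. In 21 of them the HF libraries lay below all NC libraries. The list means were -0.94, -0.89, -0.92 and -1.15 in HF 1 to HF 4, so HF 2 and HF 3 did not stand apart here. Between 15 and 18 members were called lower with 1 library left out, 17 with HF 2 and HF 3 averaged and 16 with both left out.

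Insig1, which holds the sterol sensor of the endoplasmic reticulum in place, had 81, 93.4, 88 and 85.8 CPM on HF and 267, 247, 316 and 265 CPM on NC. The groups were far apart and each was tight (log2 fold change -1.65, SE 0.10, adjusted p = 1.71e-08). Idi1, which isomerizes an early building block of sterols and was chosen for its promoter below, had 92, 94.7, 88 and 68.8 CPM on HF and 292, 201, 274 and 329 CPM on NC (log2 fold change -1.67, adjusted p = 0.00313). In both genes the groups did not overlap.

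Upstream stretches of a pair of sterol genes are shown because most of the searched sterol promoters hold a short box there. They come from the RefSeq promoter table (GRCm38.p6). The 250 bases before each gene's start were searched on both strands for CCAAT, the box that nuclear factor Y binds, and for the sterol response element written as TCACNCCAC. CCAAT was found for 16 of the 17 listed sterol genes with a promoter in the table (94.1%) and for 9 of the 9 called ones, against 40.6% of tested genes and 37.5% of all genes in the table. TCACNCCAC was found for 1 of the 17 and 0 of the 9 called, against 1.36% of tested genes. The windows below run 5′ to 3′ on the strand of the gene, with CCAAT or its reverse complement in capitals. The Insig1 window is chr5:28071166-28071230 on the plus strand and the Idi1 window is chr13:8885531-8885605 on the plus strand, and both end upstream of the gene start.
Insig1: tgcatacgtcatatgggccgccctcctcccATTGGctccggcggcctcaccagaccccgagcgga
Idi1: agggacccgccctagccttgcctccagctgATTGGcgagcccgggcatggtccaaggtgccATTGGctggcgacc
Insig1 holds 1 match and Idi1 holds 2 within its 250 bases. A match is a description of the letters and says nothing of binding in these livers.

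**Figure D3:**
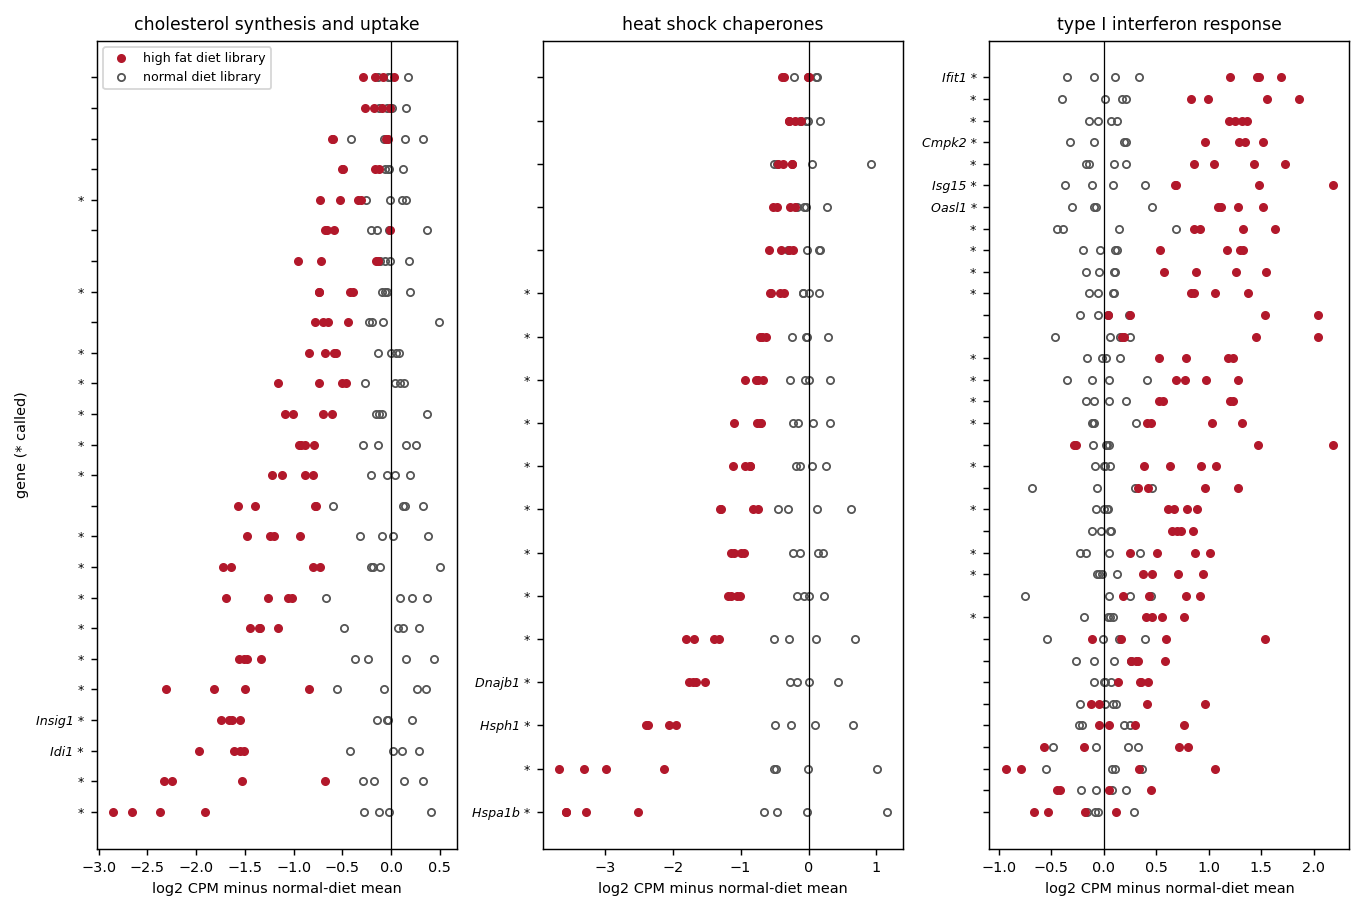
Each tested gene of the lists of cholesterol synthesis and uptake, heat shock and type I interferon response in the 8 male libraries, as log2 CPM minus the mean of the 4 normal diet libraries (filled red, high fat diet; open grey, normal diet; asterisk, called), with names given for the genes described in the text. In the first 2 panels the red points lie left of the grey ones for most genes, and in the interferon panel they lie to the right, more widely spread.

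Part of the genes of fatty acid uptake and lipid droplets rose. Of 25 tested members 11 were called higher and 1 lower, 18 had a positive log2 fold change, and the median was 0.33. The list means were 0.26, 0.92, 0.98 and 0.60 in HF 1 to HF 4, larger in HF 2 and HF 3. The summed level of the list, led by its abundant members, did not rise. It was 4913, 6676, 6961 and 5713 CPM in HF 1 to HF 4. In NC 1 to NC 4 it was 7914, 6408, 6085 and 6972 CPM, overlapping. The number called higher was 7 to 10 with 1 library left out, 7 without each of HF 2, HF 3, NC 1, NC 3 and NC 4, 7 with HF 2 and HF 3 averaged, and 3 with both left out. Cd36, a fatty acid translocase of the plasma membrane, had 117, 288, 289.7 and 151 CPM on HF and 58.1, 75.5, 70 and 63 CPM on NC. All 4 HF libraries were above the NC libraries, and HF 2 and HF 3 were about level with each other (log2 fold change 1.67, SE 0.24, adjusted p = 0.000326). Mogat1, which acylates monoacylglycerol and is known to be low in lean liver, had 2.15, 5.60, 4.02 and 3.06 CPM on HF and 0.618, 0.0856, 0.432 and 0.812 CPM on NC, without overlap (log2 fold change 2.92, SE 0.52, adjusted p = 0.00163). Cidec, which fuses lipid droplets, had 6.62, 22.4, 26.9 and 11.5 CPM on HF and 3.91, 3.80, 3.02 and 5.50 CPM on NC, also without overlap (log2 fold change 2.05, adjusted p = 0.0059, but adjusted p = 0.077 without HF 2 and HF 3). Plin2, the main droplet coat protein of hepatocytes, had 686, 588, 599 and 636 CPM on HF and 267, 449.5, 341 and 369.9 CPM on NC and was named after its values were seen. It was higher in each HF library than in any NC library (log2 fold change 0.81, adjusted p = 0.0161) and was lost without NC 1 (adjusted p 0.0556).

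Pparg, the nuclear receptor that drives several of these genes, had 8.51, 20.5, 20.1 and 17.7 CPM on HF and 9.35, 6.59, 9.68 and 9.42 CPM on NC. HF 1 lay among the NC libraries, so the groups overlapped (log2 fold change 0.93, adjusted p = 0.0353). The call was lost without HF 2, HF 3, HF 4, NC 1, NC 2, NC 3 or NC 4 (adjusted p up to 0.0998). Pnpla2, the lipase that begins the breakdown of stored triglyceride, was the member called lower. It had 49.4, 52, 50.7 and 40.9 CPM on HF and 83, 89, 65.1 and 84.4 CPM on NC, with no overlap (log2 fold change -0.74, SE 0.13, adjusted p = 0.00116). Cidea, named after its values were seen, had 0.409, 4.51, 3.85 and 4.16 CPM in HF 1 to HF 4 and no more than 0.735 CPM on NC. HF 1 alone thus remained at the normal level (log2 fold change 3.56, adjusted p = 0.00936, and 0.0611 without HF 2 and HF 3).

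Fatty acid synthesis did not move as a block. Of 17 tested members 0 were called higher and 1 lower (5.88%, near the 5.36% of all tested genes), and the median was -0.25. The list means were -1.15, 0.12, 0.15 and -0.74 in HF 1 to HF 4, low in HF 1 and HF 4 and near the normal level in HF 2 and HF 3. Scd1, the desaturase that makes monounsaturated fat, had 46.2, 2294, 2403 and 148 CPM on HF and 2240, 6089, 3834 and 2617 CPM on NC. HF 1 and HF 4 lay far below every other library while HF 2 and HF 3 lay within the normal range, and the test did not call the difference (log2 fold change -1.59, SE 0.95, adjusted p = 0.301). Fasn, the fatty acid synthase, had 21.8, 49.8, 52.6 and 31.7 CPM on HF and 77.9, 50.3, 95.5 and 51.9 CPM on NC, with overlap (log2 fold change -0.82, adjusted p = 0.177). Me1, the malic enzyme that supplies reducing power, was the called member (log2 fold change -0.86, adjusted p = 0.044), with 86.1, 215, 226 and 132 CPM on HF and 361, 207, 287 and 337 CPM on NC. HF 2 and HF 3 overlapped the normal diet, and the call was lost without HF 1, HF 4, NC 1, NC 3 or NC 4 (adjusted p up to 0.113). With HF 2 and HF 3 left out, 5 members of the list were called lower and Scd1 had an adjusted p of 0.00408.

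In fatty acid oxidation and ketogenesis 4 of 34 tested members were called higher and 1 lower, with a median of 0.05. These are 11.8% and 2.94%, against 6.03% and 5.36% of all tested genes. The list means were -0.121, 0.475, 0.527 and -0.249 in HF 1 to HF 4 and 0.005, -0.107, -0.22 and 0.322 in NC 1 to NC 4. Only HF 2 and HF 3 lay above all NC libraries. With HF 2 and HF 3 left out, 2 members were called higher and 3 lower. Pdk4, a kinase that turns pyruvate away from oxidation, had 26.6, 19.4, 21.8 and 14.8 CPM on HF and 3.71, 2.88, 2.98 and 3.44 CPM on NC. Each HF library was several times above each NC library (log2 fold change 2.67, SE 0.52, adjusted p = 0.00548). Vnn1, a pantetheinase induced by fatty acid signals, had 114, 172, 179.6 and 133 CPM on HF and 76.7, 46, 54.8 and 89.2 CPM on NC (log2 fold change 1.17, adjusted p = 0.0109, and 0.106 without HF 2 and HF 3). Fgf21, a secreted hormone of fasting and of dietary stress, was named after its values were seen and had 8.44, 2.55, 2.78 and 3.67 CPM on HF and 0.865, 0.599, 0.518 and 1.19 CPM on NC, with no overlap (log2 fold change 2.43, adjusted p = 0.0377). Its call was lost without HF 1, HF 4, NC 1, NC 2, NC 3 or NC 4 (adjusted p up to 0.0958). Cyp4a31, a fatty acid hydroxylase whose close copies share reads, was the fall (log2 fold change -1.75, adjusted p = 0.0447), lost without HF 2, HF 3, HF 4, NC 2 or NC 4 (adjusted p up to 0.124). Cpt1a, the gate of mitochondrial entry, had 618 to 698 CPM on HF and 563 to 765 CPM on NC (log2 fold change -0.02, adjusted p = 0.938). The list counts moved between 2 and 4 higher with 1 library left out, with 2 called without NC 1, NC 2 or NC 3.

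Among 25 genes of glucose and glycogen metabolism 1 was called higher and 4 lower, with a median of -0.07. The fallen members were not of 1 pathway branch. Gys2, the glycogen synthase of liver, had 183, 227, 234 and 209.7 CPM on HF and 362, 389, 357 and 368 CPM on NC, with no overlap and little spread in either group (log2 fold change -0.79, SE 0.13, adjusted p = 0.00102). Pfkfb3, which makes an activator of glycolysis, had 9.03, 11.9, 9.65 and 17.4 CPM on HF and 62.9, 29.9, 77.5 and 32.9 CPM on NC (log2 fold change -2.08, SE 0.31, adjusted p = 0.000825). Pck1, a gluconeogenic enzyme, fell (log2 fold change -0.73, adjusted p = 0.0219) without overlap and was lost without HF 2, HF 4, NC 1 or NC 2 (adjusted p up to 0.069), and had an adjusted p of 0.102 with HF 2 and HF 3 left out. Pcx, which feeds gluconeogenesis with oxaloacetate, was the rise (log2 fold change 0.49, adjusted p = 0.0159, and 0.134 without HF 2 and HF 3). Without HF 4 or NC 1 the members called lower numbered 2, and without HF 1 or NC 1 those called higher numbered 2.

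Of 26 genes of insulin and growth hormone signalling 2 were called higher and 2 lower (7.69% each, near the 6.03% and 5.36% of all tested genes). The rises were the paired transcription factors of growth hormone signalling. Stat5a had 8.32, 13, 13.3 and 10.4 CPM on HF and 3.91, 6.14, 6.01 and 4.28 CPM on NC (log2 fold change 1.15, SE 0.19, adjusted p = 0.000834). Stat5b had 42.3, 59.2, 54 and 45.2 CPM on HF and 31.8, 31.8, 33.7 and 25.9 CPM on NC (log2 fold change 0.71, SE 0.13, adjusted p = 0.00243). Neither overlapped, and HF 2 and HF 3 were the highest libraries of both. Stat5a shares exon sequence with Stat3 on the other strand in GENCODE M21, so reads of the pair cannot be told apart if counting ignored the strand. Igfbp2, an insulin-like growth factor binding protein, had 132, 78.1, 89.5 and 76.2 CPM on HF and 264, 174, 155 and 219 CPM on NC (log2 fold change -1.11, SE 0.24, adjusted p = 0.00679, and 0.0865 without HF 2 and HF 3). Foxo3, a transcription factor held in check by insulin, fell (log2 fold change -0.53, adjusted p = 0.0456) and was lost without HF 1, HF 3, HF 4, NC 1, NC 2, NC 3 or NC 4 (adjusted p up to 0.114). Irs2, the insulin receptor substrate, had 15.8, 12.1, 12.8 and 13.4 CPM on HF and 7.17, 6.42, 2.98 and 6.06 CPM on NC, and Igfbp1, a binding protein that insulin represses, had 46.8, 71.4, 73.2 and 58.3 CPM on HF and 23.6, 19.7, 6.35 and 11.2 CPM on NC. Both were separate in every library yet not called (adjusted p = 0.0644 and 0.0582).

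Few bile acid and lipoprotein genes were called. In bile acid synthesis and transport 1 of 28 was called higher and 1 lower (3.57% each, against 6.03% and 5.36% of all tested genes). The list means were -0.412, 0.016, 0.019 and -0.297 in HF 1 to HF 4 and 0.123, -0.032, -0.125 and 0.034 in NC 1 to NC 4. HF 1 and HF 4 thus lay below all NC libraries, while HF 2 and HF 3 lay among them. With HF 2 and HF 3 left out, 4 members were called lower and 1 higher. Hsd3b7, an early enzyme of the sterol nucleus, had 240.4, 298, 309 and 261 CPM on HF and 215, 188, 156 and 133 CPM on NC (log2 fold change 0.68, SE 0.13, adjusted p = 0.00313). Abcc4, a basolateral export pump, had 2.01, 1.94, 1.79 and 2.04 CPM on HF and 3.13, 5.22, 3.02 and 3.60 CPM on NC (log2 fold change -0.96, adjusted p = 0.00733, and 0.0623 without HF 2 and HF 3). Cyp7a1, the rate-limiting enzyme of bile acid synthesis, had 243, 438, 430.1 and 203 CPM on HF and 376, 181, 250.1 and 480.4 CPM on NC, and Cyp8b1, which sets the cholic acid share, had 192, 464, 468 and 202 CPM on HF and 431, 306, 199 and 483 CPM on NC. The diets overlapped in both (adjusted p = 0.968 and 0.886).

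Among 22 apolipoproteins and lipoprotein genes 2 were called higher and 1 lower (9.09% and 4.55%, against 6.03% and 5.36% of all tested genes). Apoa4, carried on triglyceride-rich particles and known to follow liver fat, had 342, 936, 934 and 412 CPM on HF and 72.7, 116, 96.3 and 119 CPM on NC. All HF libraries were higher, HF 2 and HF 3 the most (log2 fold change 2.70, SE 0.45, adjusted p = 0.00208). Apom, a carrier of sphingosine phosphate on HDL, had 152, 82.9, 89.4 and 111 CPM on HF and 237, 196, 183 and 169.7 CPM on NC (log2 fold change -0.85, SE 0.17, adjusted p = 0.00307). Scarb1, the HDL receptor, rose (log2 fold change 0.43, adjusted p = 0.0258), lost without HF 2, HF 3, NC 1, NC 3 or NC 4 (adjusted p up to 0.0862).

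**Figure D4:**
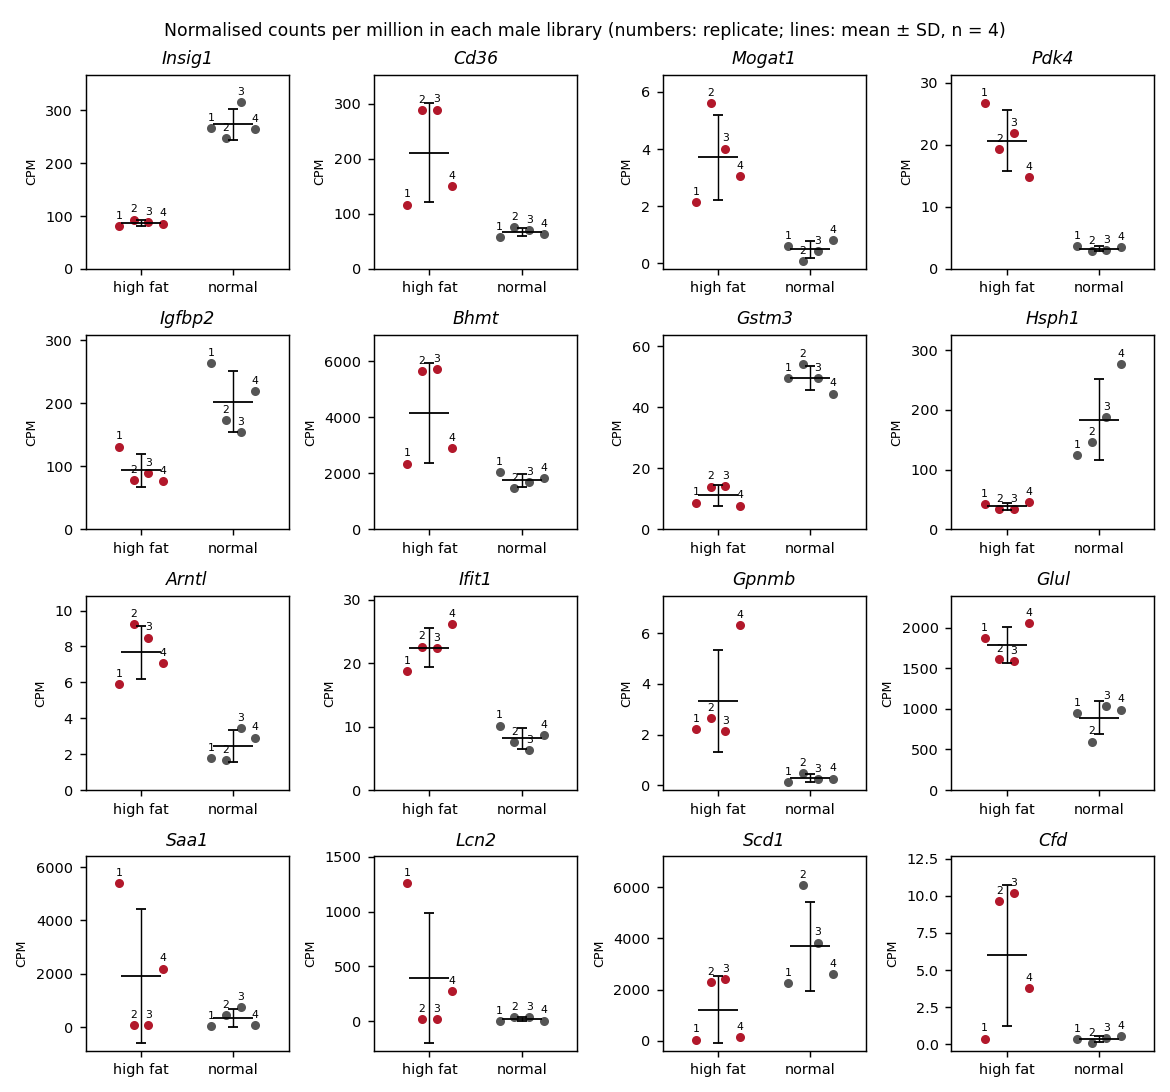
CPM of 16 genes in each male library (red, high fat diet; grey, normal diet; digits, replicate; lines, mean and SD of 4), on linear axes with a scale for each gene. Insig1, Gstm3 and Hsph1 are low in all 4 high fat diet libraries, Cd36 and Bhmt are highest in replicates 2 and 3, and Saa1 and Lcn2 are high only in replicates 1 and 4.

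Of 39 drug-metabolizing cytochrome P450s 11 were called lower and 1 higher, and of 44 conjugating enzymes and regulators 14 were called lower and 1 higher, with medians of -0.18 and -0.34. Falls numbered 8 to 10 and 12 to 15 with 1 library left out, and 12 and 19 with HF 2 and HF 3 left out. Rises numbered 4 and 5 without HF 1. The P450 means were -1.28, 0.11, 0.28 and -0.81 in HF 1 to HF 4, and the conjugation means -0.73, -0.28, -0.26 and -0.59 in HF 1 to HF 4. Both lists had their lowest means in HF 1 and HF 4, and the P450 means of HF 2 and HF 3 were above 0. Many of these genes have near-identical copies between which RSEM divides reads, so single levels are uncertain.

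Cyp2f2, a periportal P450, had 694, 765, 772 and 790.2 CPM on HF and 1237, 1307, 1292 and 1189 CPM on NC, with little spread in either group (log2 fold change -0.73, SE 0.09, adjusted p = 0.000115). Cyp2a5, a pericentral P450, had 252, 646, 642 and 322 CPM on HF and 1614, 992, 879 and 1212 CPM on NC (log2 fold change -1.33, adjusted p = 0.0238), lost without HF 4 or NC 1 (adjusted p up to 0.0689). Cyp3a11, the main drug oxidase of mouse liver, fell in every HF library but to different depths, with 251, 1294, 1304 and 413 CPM in HF 1 to HF 4 against 9756 to 10990 CPM on the normal diet. Cyp2e1, which oxidizes ethanol and small solvents, had 10320, 12380, 12930 and 10060 CPM on HF and 11010, 6355, 8522 and 9950 CPM on NC, overlapping, and was not called (log2 fold change 0.35, adjusted p = 0.216). Por, the reductase that supplies P450s with electrons, was named after its values were seen and had 371, 419, 429 and 328 CPM on HF and 587, 666, 611 and 630.2 CPM on NC (log2 fold change -0.69, SE 0.13, adjusted p = 0.00282).

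Gstm3, a glutathione transferase, had 8.77, 14, 14.1 and 7.84 CPM on HF and 49.7, 54.2, 49.6 and 44.5 CPM on NC, far apart in every library (log2 fold change -2.14, SE 0.20, adjusted p = 9.57e-06). Ugt2b5, a glucuronosyltransferase, had 816, 1058, 1097 and 989 CPM on HF and 2595, 1951, 2027 and 2306 CPM on NC (log2 fold change -1.17, SE 0.12, adjusted p = 2.34e-05). Gstp1, named after its values were seen, had 1767, 496, 499 and 1535 CPM on HF and 3590, 2499, 2835 and 2609 CPM on NC, lowest in HF 2 and HF 3 (log2 fold change -1.42, adjusted p = 0.0232), and was lost without HF 2 or NC 1 (adjusted p up to 0.0594). Sult1a1, a phenol sulfotransferase, was the rise (log2 fold change 0.58, adjusted p = 0.0408), with overlap, and was lost without HF 2, HF 3, NC 1, NC 3 or NC 4 (adjusted p up to 0.124). Among the nuclear receptors that drive these enzymes, Nr1i2 (the pregnane X receptor) had 50.6, 59.3, 62.4 and 52.2 CPM on HF and 75.8, 77.8, 76.1 and 67.8 CPM on NC (log2 fold change -0.41, SE 0.10, adjusted p = 0.0143). Nr1i3 (the constitutive androstane receptor) had 120.4, 209, 217 and 130.1 CPM on HF and 184, 93.8, 176 and 147 CPM on NC, overlapping (log2 fold change 0.17, adjusted p = 0.671).

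Genes known to differ between male and female liver parted the HF libraries. The mean of 24 male-biased genes was -0.13, -1.83, -2.01 and -0.17 in HF 1 to HF 4, against 0.09, -0.13, 0.05 and -0.01 in NC 1 to NC 4. HF 2 and HF 3 were far below all others, and HF 1 and HF 4 were near the normal level. The 26 female-biased genes had means of -1.08, 0.94, 1.34 and -0.35 in HF 1 to HF 4, but the normal diet libraries also ranged widely, with -0.02, 0.30, -1.20 and 0.92 in NC 1 to NC 4. Of the male-biased genes 4 were called lower (16.7%, against 5.36% of all tested genes) and 0 higher. Of the female-biased genes 2 were called higher and 1 lower (7.69% and 3.85%, near the 6.03% and 5.36% of all tested genes). With HF 2 and HF 3 left out, 4 male-biased genes were called lower and 2 higher, and 5 female-biased genes lower. Without HF 2 the male-biased genes called lower numbered 2, and without HF 1 or NC 2 the female-biased genes called higher numbered 4.

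Cspg5, a proteoglycan gene of the male-biased list, was near 0 in every HF library, with 0.297, 0.0679, 0 and 0.354 CPM on HF and 1.85, 2.08, 2.20 and 2.19 CPM on NC (log2 fold change -3.57, adjusted p = 0.00122). Ugt2b1, of the same list, had 522, 543, 564 and 754 CPM on HF and 1224, 1175, 1358 and 1335 CPM on NC (log2 fold change -1.10, SE 0.17, adjusted p = 0.000508), so its fall did not follow the split of the libraries. Hsd3b5, a steroid dehydrogenase that marks male liver, had 151, 32.1, 30.2 and 161 CPM on HF and 167, 86.9, 105 and 97.6 CPM on NC, low in HF 2 and HF 3 only (log2 fold change -0.29, adjusted p = 0.776). Slc22a27, a female-biased transporter, had 0.743, 7.40, 7.56 and 1.15 CPM on HF and 0.329, 0.343, 0.259 and 0.433 CPM on NC (log2 fold change 3.60, adjusted p = 0.00743). Its high values were those of HF 2 and HF 3, as for Cyp2b9, a female-biased P450 with 3.31, 96.2, 95.8 and 6.51 CPM in HF 1 to HF 4 and no more than 1.68 CPM on NC. Elovl3, a fatty acid elongase of male liver, had 56.6, 128, 135 and 84.8 CPM on HF and 94.3, 66, 46.7 and 65.4 CPM on NC, overlapping (log2 fold change 0.57, adjusted p = 0.467). Cux2, a transcription factor of female liver, had 0.0743, 0.170, 0.172 and 0.266 CPM on HF and 0.206, 0.428, 0 and 0.352 CPM on NC (log2 fold change -0.68, adjusted p = 0.492).

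Of 39 genes of the urea cycle and amino acid breakdown 2 were called lower and 0 higher. The share called lower, 5.13%, was near the 5.36% of all tested genes. Tat, which opens tyrosine breakdown, had 804, 839, 878 and 677 CPM on HF and 2571, 2578, 1591 and 1794 CPM on NC (log2 fold change -1.42, SE 0.19, adjusted p = 0.000125). Tdo2, which opens tryptophan breakdown, had 1297, 2072, 2120 and 1431 CPM on HF and 3256, 3868, 2541 and 3136 CPM on NC (log2 fold change -0.89, SE 0.18, adjusted p = 0.00351). Neither overlapped. Cps1, the entry enzyme of the urea cycle, was lower in each HF library, with 2400, 3066, 3171 and 2886 CPM on HF and 3539, 4258, 3618 and 3651 CPM on NC, but was not called (log2 fold change -0.39, adjusted p = 0.0665).

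Of 24 methionine, cysteine and taurine genes 2 were called higher and 2 lower (8.33% each, near the 6.03% and 5.36% of all tested genes), with 5 higher without HF 1. Bhmt, which remethylates homocysteine with betaine, had 2348, 5664, 5719 and 2908 CPM on HF and 2044, 1473, 1678 and 1822 CPM on NC. Every HF library was above the normal ones, and HF 2 and HF 3 were far above HF 1 and HF 4 (log2 fold change 1.25, SE 0.24, adjusted p = 0.00293). Gss, which completes glutathione, had 45.3, 40.8, 48.3 and 43.5 CPM on HF and 69.96, 66.2, 75.9 and 65.1 CPM on NC (log2 fold change -0.64, SE 0.10, adjusted p = 0.000825). It overlaps Acss2, a neighbour on the other strand. Csad, the decarboxylase of taurine synthesis, was the deepest fall of the list, with 24.8, 45.9, 46.1 and 28.8 CPM in HF 1 to HF 4 against 209 to 367 CPM. Cdo1, the dioxygenase just before it in the pathway, had 1018, 1541, 1626 and 984 CPM on HF and 1426, 1053, 948 and 1005 CPM on NC and was not called (log2 fold change 0.22, adjusted p = 0.453). Cbs, which commits homocysteine to cysteine, had 164, 143, 146 and 138 CPM on HF and 171, 325, 195 and 159 CPM on NC (log2 fold change -0.52, adjusted p = 0.0729).

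The nuclear-encoded subunits of oxidative phosphorylation gave no call. Of 75, 0 were called by edgeR, by limma on log2(TPM + 1) or by DESeq2, 9 had an unadjusted p under 0.05 in edgeR, and the median was -0.16. NC 1 stood apart from the other NC libraries, with list means of 0.36, -0.09, -0.13 and -0.14 in NC 1 to NC 4 against -0.20, -0.10, -0.04 and -0.27 in HF 1 to HF 4. Sdha, a subunit of complex II, had 425 to 555 CPM on HF and 448 to 506 CPM on NC (log2 fold change 0.08, adjusted p = 0.701).

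Of 75 cytosolic ribosomal protein genes 4 were called lower, 5.33% against 5.36% of all tested genes. All 75 had a negative log2 fold change, with a median of -0.36 against 0.01 over all genes. The list means were -0.05, -0.53, -0.47 and -0.36 in HF 1 to HF 4 and 0.37, -0.08, -0.12 and -0.17 in NC 1 to NC 4, so that HF 1 lay within the normal range and NC 1 above it. The count was 40 without HF 1, 0 without HF 2, HF 3, HF 4 or NC 1, 1 without NC 2 or NC 3, 2 without NC 4, 14 by DESeq2, and 0 with HF 2 and HF 3 averaged. Rpl7a had 275, 216, 227 and 233 CPM on HF and 393, 299, 288 and 291 CPM on NC (log2 fold change -0.42, adjusted p = 0.0339), lost without HF 2, HF 3, HF 4 or NC 1 (adjusted p up to 0.114). Rpl6 had 276, 189, 195 and 219 CPM on HF and 334, 277, 272 and 280.5 CPM on NC (log2 fold change -0.41, adjusted p = 0.0412), lost without HF 2, HF 3, HF 4, NC 1, NC 2, NC 3 or NC 4 (adjusted p up to 0.133). Rplp0, of the ribosomal stalk, had 259, 165, 172 and 192 CPM on HF and 306, 229, 219.8 and 231 CPM on NC (log2 fold change -0.32, adjusted p = 0.197). These genes have many processed pseudogenes that share their reads.

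Heat shock chaperones, which refold damaged protein, fell together. Of 18 tested, 13 were called lower and 0 higher, all 18 had a negative log2 fold change, and the median was -0.89. In 14 the HF libraries lay below all NC libraries. The list means were -1.11, -1.21, -1.19 and -0.94 in HF 1 to HF 4 and -0.23, -0.22, 0.03 and 0.42 in NC 1 to NC 4. HF 2 and HF 3 did not stand apart, and between 12 and 14 members were called lower with 1 library left out. Hsph1, a large chaperone of the cytosol, had 42, 33.9, 33.5 and 45.2 CPM on HF and 125, 146, 188 and 277 CPM on NC (log2 fold change -2.25, SE 0.24, adjusted p = 4.35e-05). Dnajb1, a partner of the inducible chaperones, had 15.5, 14.5, 15.1 and 16.9 CPM on HF and 43.6, 40.5, 49.3 and 65.8 CPM on NC (log2 fold change -1.69, SE 0.17, adjusted p = 1.16e-05). Hspa1b, the most inducible member, had 8.36, 6.86, 6.84 and 14.3 CPM on HF and 52.1, 59.3, 80.4 and 182 CPM on NC (log2 fold change -3.37, SE 0.42, adjusted p = 0.000302). It shares nearly its whole sequence with Hspa1a. The normal diet libraries differed among themselves in these genes, with NC 4 the highest of all in Hsph1, Dnajb1 and Hspa1b.

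The endoplasmic reticulum and integrated stress list gave 2 of 30 higher and 1 lower, with a median of -0.19. These shares, 6.67% and 3.33%, were near the 6.03% and 5.36% of all tested genes. Its means were 0.28, -0.69, -0.67 and -0.02 in HF 1 to HF 4, lower in HF 2 and HF 3. Herpud1, which clears misfolded protein from the endoplasmic reticulum, had 199, 253, 258 and 189.7 CPM on HF and 605, 446, 713 and 716 CPM on NC, far apart in every library (log2 fold change -1.46, SE 0.16, adjusted p = 3.69e-05). Hspa5, the main chaperone of that compartment, had 1456, 426, 446 and 1038 CPM on HF and 1262, 950.5, 1689 and 2248 CPM on NC, low in HF 2 and HF 3 and in the normal range in HF 1 and HF 4 (log2 fold change -0.87, adjusted p = 0.139). Ddit3, a stress-induced transcription factor, had 11.8, 3.87, 2.96 and 5.36 CPM on HF and 10.6, 6.22, 12.5 and 15.1 CPM on NC (log2 fold change -0.89, adjusted p = 0.124). The rises were those of Derl3 (log2 fold change 1.69, adjusted p = 0.0214) and Atf3 (log2 fold change 1.31, adjusted p = 0.0387), lost without HF 4, NC 1, NC 2 or NC 3 (adjusted p up to 0.065) and without HF 1, HF 4, NC 1, NC 2 or NC 3 (adjusted p up to 0.109). Without HF 1 the members called lower numbered 7, and without HF 4, NC 1, NC 2 or NC 3 those called higher numbered 0.

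In the antioxidant list 5 of 25 were called lower and 0 higher. Ephx1, an epoxide hydrolase, had 172, 389, 384 and 235 CPM on HF and 635, 559.5, 562 and 628 CPM on NC (log2 fold change -1.02, SE 0.20, adjusted p = 0.00348). Cbr1, a carbonyl reductase, had 20.9, 30.4, 31.4 and 16.6 CPM on HF and 53.4, 43.9, 43.5 and 44.2 CPM on NC (log2 fold change -0.90, SE 0.17, adjusted p = 0.00321). Nqo1, the usual reporter of NRF2 activity, had 3.16, 7.26, 7.90 and 3.10 CPM on HF and 8.52, 5.62, 4.06 and 6.42 CPM on NC and was not called (log2 fold change -0.19, adjusted p = 0.714).

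Immediate early genes were called higher in 4 of 20 and lower in 0, with a median of 0.52. Jun had 27.2, 28.7, 30.9 and 38.4 CPM on HF and 8.81, 8.33, 14.8 and 8.61 CPM on NC (log2 fold change 1.63, SE 0.27, adjusted p = 0.00141). Fosl2, its partner, had 13.3, 8.66, 8.18 and 15.7 CPM on HF and 5.11, 7.16, 6.35 and 6.42 CPM on NC (log2 fold change 0.87, adjusted p = 0.0101). Neither overlapped. Fos had 0.929, 2.58, 2.27 and 2.44 CPM on HF and 0.494, 1.20, 1.34 and 0.514 CPM on NC and was not called (log2 fold change 1.22, adjusted p = 0.0619). The number called higher was 2 without NC 1 or NC 3.

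The circadian clock list had 11 of 19 members lower and 2 higher, with a median of -0.57, and list means of -0.74, -0.48, -0.49 and -0.68 in HF 1 to HF 4. Since the clock sets these genes by the hour, and the hour of collection is not given, its part in the difference was not tested. Arntl, the activator of the loop, had 5.91, 9.23, 8.49 and 7.08 CPM on HF and 1.77, 1.66, 3.46 and 2.92 CPM on NC (log2 fold change 1.65, SE 0.28, adjusted p = 0.00111). Per2 and Ciart, repressors in the loop, had 16.2, 16.4, 16.6 and 17.4 CPM on HF and 25.9, 27.3, 36.8 and 30.5 CPM on NC (log2 fold change -0.86, SE 0.13, adjusted p = 0.000325) and 2.30, 3.16, 2.44 and 0.885 CPM on HF and 22.2, 23.7, 19.1 and 14.1 CPM on NC (log2 fold change -3.15, SE 0.42, adjusted p = 0.000364). In these genes the groups did not overlap. Per1, named for its promoter, had 11.2, 12.4, 12.9 and 8.63 CPM on HF and 25.6, 24.5, 29.9 and 32.9 CPM on NC (log2 fold change -1.32, adjusted p = 0.0114). The E-box, CACGTG, to which the Arntl protein binds, was found in the 250 bases before 4 of the 11 called clock genes with a promoter in the table (36.4%), against 9.67% of tested genes, and TTATGTAA, the D-box, in 1 of the 11. The Per1 window is chr11:69098753-69098818 on the plus strand (GRCm38.p6), with the E-box in capitals.
Per1: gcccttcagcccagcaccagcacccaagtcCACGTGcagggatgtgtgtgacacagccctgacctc

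Cell cycle genes were called lower in 3 of 36 (8.33%, against 5.36% of all tested genes) and higher in 0, with a median of -0.50. Ccne1 and Ccne2, the cyclins of entry into DNA replication, had 1.97, 0.441, 0.653 and 0.797 CPM on HF and 3.13, 2.80, 2.12 and 2.63 CPM on NC (log2 fold change -1.47, adjusted p = 0.0096) and 4.35, 3.84, 4.19 and 4.03 CPM on HF and 10.1, 5.11, 6.35 and 9.37 CPM on NC (log2 fold change -0.91, adjusted p = 0.00548). Their groups did not overlap, and Ccne1 had an adjusted p of 0.104 without HF 2 and HF 3. Mki67, the proliferation marker, had 1.23, 0.747, 1.99 and 2.17 CPM on HF and 1.61, 4.39, 1.77 and 1.60 CPM on NC, with 1 high normal library (log2 fold change -0.63, adjusted p = 0.399). Ccnd1, an early cyclin, had 26.8, 20.7, 20.1 and 32.9 CPM on HF and 21.4, 44.8, 37.3 and 35.3 CPM on NC (log2 fold change -0.47, adjusted p = 0.202). Cdkn1a, a brake on the cycle, had 5.57, 9.85, 10.9 and 7.04 CPM on HF and 3.42, 6.96, 6.83 and 5.14 CPM on NC (log2 fold change 0.58, adjusted p = 0.169).

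Zonation markers moved in part. Of 21 pericentral hepatocyte genes 6 were called higher and 2 lower, with a median of 0.29, and of 20 periportal genes 3 were called lower and 0 higher, with a median of -0.23. Glul, the glutamine synthetase of the cells around the central vein, had 1870, 1615, 1586 and 2052 CPM on HF and 947, 597, 1034 and 992 CPM on NC, without overlap (log2 fold change 1.00, SE 0.19, adjusted p = 0.00272). Lgr5 and Axin2, which report Wnt signalling there, had 5.54, 6.45, 7.70 and 8.99 CPM on HF and 3.99, 3.02, 4.80 and 2.79 CPM on NC (log2 fold change 0.98, SE 0.21, adjusted p = 0.00628) and 8.06, 7.60, 6.12 and 6.64 CPM on HF and 4.53, 3.34, 4.19 and 5.01 CPM on NC (log2 fold change 0.74, adjusted p = 0.0154, and adjusted p = 0.053 without NC 2). Lhpp, a pericentral phosphatase, fell instead, with 25.6, 28.9, 31.3 and 26.2 CPM on HF and 47.7, 45.3, 35.1 and 36 CPM on NC (log2 fold change -0.55, SE 0.12, adjusted p = 0.00783). Of the periportal list, Cyp2f2 and Pck1 are given above and Alb is the third call. Hal, a portal histidine enzyme, had 237 to 362 CPM on HF and 195 to 376 CPM on NC (log2 fold change 0.24, adjusted p = 0.494). Periportal falls numbered 1 without HF 4, NC 1 or NC 2, and pericentral falls 1 without HF 4 or NC 1.

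Interferon-stimulated genes rose. Of 35 tested type I response genes, 20 were called higher and 0 lower, 33 had a positive log2 fold change, and the median was 0.84 against 0.01 over all genes. In 21 the HF libraries lay above all NC libraries. List means of the type I response were 1.09, 0.44, 0.48 and 1.04 in HF 1 to HF 4, larger in HF 1 and HF 4, and 0.04, 0.04, -0.13 and 0.05 in NC 1 to NC 4. With 1 library left out, 13 to 19 members were called higher, 13 without HF 4 or NC 3, and with HF 2 and HF 3 averaged or left out 19 or 22. Ifit1, a sensor of foreign RNA caps, had 18.7, 22.6, 22.3 and 26.2 CPM on HF and 10.2, 7.56, 6.31 and 8.69 CPM on NC, and every HF library was above every NC library (log2 fold change 1.46, SE 0.20, adjusted p = 0.000239). Cmpk2, a mitochondrial nucleotide kinase of the response, had 7.95, 10.4, 10 and 11.7 CPM on HF and 4.65, 3.23, 3.80 and 4.71 CPM on NC (log2 fold change 1.29, SE 0.17, adjusted p = 0.000167). Oasl1, named for its promoter, had 9.88, 9.64, 11.1 and 13 CPM on HF and 6.22, 3.65, 4.23 and 4.28 CPM on NC (log2 fold change 1.25, SE 0.19, adjusted p = 0.000526). Isg15, a ubiquitin-like modifier, had 13, 4.58, 4.54 and 7.97 CPM on HF and 3.71, 2.17, 2.59 and 3.00 CPM on NC, with HF 1 the highest (log2 fold change 1.39, adjusted p = 0.0294). It was lost without HF 1, HF 4, NC 2, NC 3 or NC 4 (adjusted p up to 0.0826).

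The promoters of 3 of these genes are shown because the interferon response list shares letters that few promoters hold. The interferon response element was searched as AAANNGAAA on both strands of the 250 bases before the gene start. It was found for 15 of the 24 listed genes with a promoter in the table (62.5%) and 10 of the 15 called (66.7%), against 8.99% of tested genes and 10.8% of all genes in the table. Capitals mark the matches, which can overlap. The windows are, from RefSeq on GRCm38.p6, chr19:34640755-34640842 on the plus strand for Ifit1, chr4:156200845-156200925 on the minus strand for Isg15, and chr5:114923033-114923122 on the plus strand for Oasl1, each 5′ to 3′ on the strand of its gene.
Ifit1: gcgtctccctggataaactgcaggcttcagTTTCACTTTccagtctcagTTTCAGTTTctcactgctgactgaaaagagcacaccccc
Isg15: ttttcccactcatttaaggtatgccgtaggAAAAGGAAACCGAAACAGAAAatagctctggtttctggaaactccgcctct
Oasl1: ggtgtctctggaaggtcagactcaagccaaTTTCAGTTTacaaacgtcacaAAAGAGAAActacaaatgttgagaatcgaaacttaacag
Ifit1 and Oasl1 hold 2 matches each and Isg15 holds 3.

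The GTPases induced mainly by interferon gamma were called higher in 4 of 23 and lower in 0. The median was 0.74, 21 log2 fold changes were positive, and in 13 genes the HF libraries lay above all NC libraries. Their means were 0.63, 0.67, 0.72 and 0.59 in HF 1 to HF 4. The count was 13 when the fit held only the 8 male libraries, 2 with HF 2 and HF 3 averaged, and 2 in each of the fits without 1 library except that without HF 1, which gave 4. Gbp11 had 14.9, 7.91, 8.28 and 15 CPM on HF and 3.71, 3.77, 4.32 and 1.87 CPM on NC (log2 fold change 1.76, SE 0.25, adjusted p = 0.000274), Ifi47 had 52.2, 24.3, 28.1 and 42.9 CPM on HF and 13.3, 15.8, 16.3 and 13.6 CPM on NC (log2 fold change 1.32, adjusted p = 0.015). Gbp2 had 8.25, 12.8, 13.5 and 7.26 CPM on HF and 4.32, 6.33, 5.57 and 4.25 CPM on NC (log2 fold change 1.03, adjusted p = 0.177). All were higher in each HF library than in any NC library, and Gbp2 was not called. Reads of these GTPases are shared between close copies. Antigen presentation genes were not called in either class, 0 of 18 for MHC class I and 0 of 11 for class II by edgeR, with 3 and 0 at an unadjusted p under 0.05. DESeq2 called 2 class I and 0 class II genes higher, and 4 class I genes were called with only the 8 male libraries in the fit. B2m, the light chain of class I, had 1504 to 1531 CPM on HF and 1280 to 1471 CPM on NC (log2 fold change 0.15, adjusted p = 0.457). Cd74, the class II chaperone, had 51, 59.4, 60.6 and 45.4 CPM on HF and 39.9, 46.3, 55.6 and 28.9 CPM on NC (log2 fold change 0.34, adjusted p = 0.588).

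Of 32 cytokines and chemokines 22 were tested, 3 called higher and 1 lower, while 10, Tnf and Il6 among them, did not pass the filter on low counts. Il1b had 2.19, 2.72, 2.71 and 2.35 CPM on HF and 0.659, 0.970, 0.648 and 0.677 CPM on NC, low but apart in each library (log2 fold change 1.74, SE 0.23, adjusted p = 0.000116). Csf1, the growth factor of macrophages, had 10.3, 9.47, 9.24 and 12.7 CPM on HF and 6.63, 6.31, 8.77 and 6.90 CPM on NC (log2 fold change 0.55, adjusted p = 0.0182, and adjusted p up to 0.068 without HF 4, NC 1 or NC 2). Ccl9 fell, with 42.4, 42.6, 43.9 and 42 CPM on HF and 79.3, 94.9, 56.4 and 55.2 CPM on NC (log2 fold change -0.74, adjusted p = 0.0189, and adjusted p up to 0.0635 without HF 2, HF 4, NC 1 or NC 2). Ccl2, which calls monocytes to tissue, had 0.520, 1.43, 0.928 and 0.797 CPM on HF and 0.288, 0.400, 0.173 and 0.352 CPM on NC, apart in every library but not called (log2 fold change 1.56, adjusted p = 0.0745). The number called higher was 1 without HF 4 or NC 1 and 5 without HF 2 or HF 3.

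Markers of resident macrophages changed little. Kupffer cell markers were called higher in 2 of 18 and lower in 0, and their summed level was 918, 688, 627 and 782 CPM in HF 1 to HF 4 and 686, 886, 722 and 675 CPM in NC 1 to NC 4, overlapping. Clec4f, a lectin that defines Kupffer cells, had 138, 77.9, 66.2 and 103 CPM on HF and 88.7, 90.6, 83.7 and 83.9 CPM on NC (log2 fold change 0.15, adjusted p = 0.603). Timd4 had 9.70, 4.68, 3.64 and 6.42 CPM on HF and 6.67, 10.7, 8.34 and 7.82 CPM on NC (log2 fold change -0.46, adjusted p = 0.229). Both were highest among HF libraries in HF 1. Cd68, a lysosomal protein of all macrophages, had 12.6, 10.5, 8.80 and 13.6 CPM on HF and 6.92, 7.22, 7.26 and 7.88 CPM on NC (log2 fold change 0.63, adjusted p = 0.0183), lost without HF 4 or NC 1 (adjusted p up to 0.0663). Id3, a regulator of Kupffer cell identity, had 24.4, 29.1, 27.6 and 31.7 CPM on HF and 21.4, 11, 21.8 and 11.6 CPM on NC (log2 fold change 0.78, adjusted p = 0.0343), lost without HF 2, HF 3, HF 4, NC 2 or NC 4 (adjusted p up to 0.0931). Without HF 4 both were lost and the list had 0 calls.

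Markers of recruited and lipid-associated macrophages were called higher in 6 of 22 and lower in 2, with a median of 0.57 and list means of 0.81, 0.63, 0.65 and 1.12 in HF 1 to HF 4 and -0.35, 0.57, -0.04 and -0.18 in NC 1 to NC 4. Their summed level was 2156, 1662, 1683 and 1860 CPM in HF 1 to HF 4. In NC 1 to NC 4 it was 1483, 2076, 1519 and 1476 CPM, with NC 2 above HF 2, HF 3 and HF 4, so the diets overlapped. Gpnmb, a lysosomal glycoprotein of lipid-laden macrophages, had 2.23, 2.65, 2.13 and 6.33 CPM on HF and 0.123, 0.485, 0.259 and 0.271 CPM on NC, all HF libraries being higher and HF 4 the highest (log2 fold change 3.48, SE 0.78, adjusted p = 0.00987). Mmp12, an elastase of the same cells, had 3.68, 11.7, 8.80 and 9.65 CPM in HF 1 to HF 4 and no more than 0.713 CPM on NC. Ccr2, the monocyte receptor of Ccl2, had 3.23, 3.94, 2.85 and 5.84 CPM on HF and 0.618, 1.77, 1.38 and 0.975 CPM on NC (log2 fold change 1.72, SE 0.32, adjusted p = 0.00231). Trem2, a lipid receptor that names the cells, had 1.56, 0.509, 0.893 and 1.73 CPM on HF and 0.412, 0.428, 0.302 and 0.406 CPM on NC (log2 fold change 1.57, adjusted p = 0.0403). Its level was low, and it was lost without HF 1, HF 3, HF 4, NC 1, NC 2, NC 3 or NC 4 (adjusted p up to 0.121). The 2 falls were those of Cd9 (log2 fold change -0.99, adjusted p = 0.00913, and 0.121 without HF 2 and HF 3) and Fabp5, a fatty acid carrier that hepatocytes also express, with 19.2, 2.78, 3.40 and 9.92 CPM on HF and 46.5, 60.2, 30.7 and 41.9 CPM on NC (log2 fold change -2.35, adjusted p = 0.02, and adjusted p = 0.0516 without HF 3). The number called higher was 3 without NC 1 or NC 3.

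**Figure D5:**
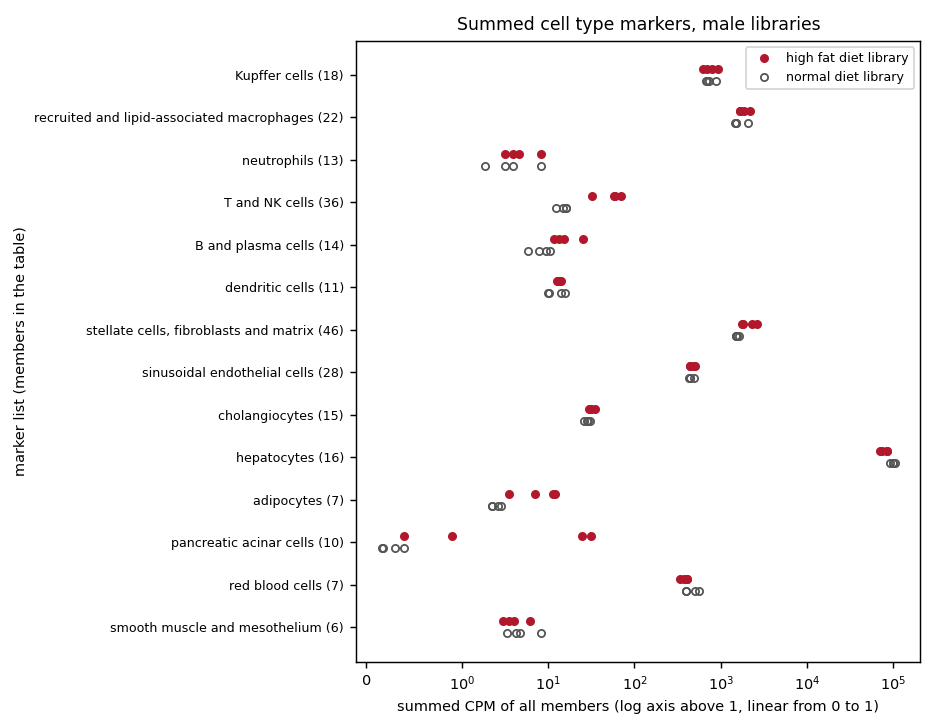
Summed CPM of 14 lists of cell type markers in each male library (filled red, high fat diet; open grey, normal diet), on an axis that is linear from 0 to 1 and logarithmic above; the number of list members in the table stands in parentheses. The hepatocyte sum, of which albumin is the largest part, is lower in all 4 high fat diet libraries, the T and NK sum is led by Themis there, and acinar markers are high in 2 high fat diet libraries only.

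Of 36 T and NK cell markers 22 were tested and 1, Themis, was called. Themis had 17.2, 43.5, 41.8 and 52.3 CPM in HF 1 to HF 4 and 1.06 to 2.85 CPM on the normal diet, and it led the summed level of the list on HF, 32.5, 58.5, 59.9 and 69 CPM in HF 1 to HF 4 and 14.7, 16, 16 and 12.2 CPM in NC 1 to NC 4. Without Themis the sum was 15.3, 15, 18.1 and 16.7 CPM in HF 1 to HF 4 and 11.9, 14.9, 13.1 and 10.2 CPM in NC 1 to NC 4. The defining T cell gene Cd3e had at most 0.441 CPM in any male library (log2 fold change 0.31, adjusted p = 0.739). Cd8a, at most 0.343 CPM, was not tested. B and plasma cell markers gave 1 call in 9 tested, Ighm (log2 fold change 1.52, adjusted p = 0.017), with 6.24, 5.23, 14.8 and 6.64 CPM on HF and 5.02, 2.62, 2.25 and 1.73 CPM on NC. HF 3 held the highest level of Ighm and also of Jchain. Jchain had 1.34, 1.19, 4.33 and 1.55 CPM on HF and 0.947, 0.856, 1.17 and 0.920 CPM on NC (log2 fold change 1.12, adjusted p = 0.0549). The call of Ighm was lost without HF 3, NC 3 or NC 4 (adjusted p up to 0.054). Cd79a, of the B cell receptor, had 0, 0.340, 1.03 and 0.177 CPM on HF and 0.206, 0.257, 0.259 and 0.190 CPM on NC (log2 fold change 0.79, adjusted p = 0.515). Of neutrophil markers 4 of 13 were tested, and edgeR and DESeq2 called 0, with 0 at an unadjusted p under 0.05. S100a8, the granule protein, had at most 1.64 CPM (log2 fold change 1.25, adjusted p = 0.197). Dendritic cell markers gave 0 calls in 11 by edgeR and DESeq2, with 0 at an unadjusted p under 0.05, and Xcr1 had at most 0.669 CPM (log2 fold change 0.66, adjusted p = 0.362).

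Stellate cell, fibroblast and matrix genes were called higher in 8 of 46 and lower in 0. The median was 0.49 and 41 log2 fold changes were positive. Means of the list were 0.33, 0.43, 0.37 and 0.85 in HF 1 to HF 4, highest in HF 4. The count rested on few libraries: it was 1 without NC 4, 2 without HF 4 or NC 3, 3 without NC 1, 5 without HF 2, and 14 with no scaling beyond library totals. Thbs1, a matrix protein that activates TGF beta, had 1.52, 2.24, 3.78 and 3.76 CPM on HF and 1.07, 1.31, 0.778 and 1.16 CPM on NC (log2 fold change 1.37, adjusted p = 0.0127, and 0.0642 without HF 2 and HF 3). Col1a1, the main fibrillar collagen, had 8.14, 8.66, 7.25 and 17.3 CPM on HF and 2.59, 7.88, 3.37 and 3.98 CPM on NC, with HF 4 the highest, NC 2 within the range of the other HF libraries, and no call (log2 fold change 1.19, adjusted p = 0.0824). Timp1, an inhibitor of matrix breakdown, had a low level, 0.409, 0.136, 0.344 and 0.708 CPM on HF and 0, 0.114, 0 and 0 CPM on NC (log2 fold change 3.42, adjusted p = 0.0168), and its call was lost without HF 4 or NC 4 (adjusted p up to 0.0552). Lrat, which stores retinol in quiescent stellate cells, had 20.03, 25.2, 23.6 and 25.7 CPM on HF and 16.7, 17.4, 17.4 and 19.4 CPM on NC, apart in every library and not called (log2 fold change 0.41, adjusted p = 0.107).

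Of 28 endothelial markers 2 were called higher (7.14%, near the 6.03% of all tested genes) and 0 lower, with a median of 0.04. Plvap, a diaphragm protein of permeable endothelium, had 17.5, 23.9, 24.3 and 23.7 CPM on HF and 15.7, 15.3, 13 and 13.5 CPM on NC (log2 fold change 0.64, SE 0.11, adjusted p = 0.00119). Rspo3, a Wnt enhancer made by the central vein endothelium, had 8.51, 7.74, 5.53 and 8.15 CPM on HF and 4.61, 5.57, 5.05 and 5.58 CPM on NC (log2 fold change 0.52, adjusted p = 0.0321), lost without HF 1, HF 2, HF 4, NC 1 or NC 3 (adjusted p up to 0.0862). Stab2 and Clec4g, receptors of the sinusoid, had 26.6 to 36.7 against 22.2 to 24.4 CPM and 23.7 to 30.1 against 20.4 to 27 CPM, and were not called (adjusted p = 0.0865 and 0.42). Bile duct markers gave 1 call in 11, the fall of Krt19, with 0.557, 0.475, 0.550 and 0.443 CPM on HF and 1.19, 2.60, 0.691 and 1.30 CPM on NC (log2 fold change -1.52, adjusted p = 0.0093, and 0.06 without HF 2 and HF 3). Epcam, of the same cells, had 1.15, 0.747, 0.756 and 1.42 CPM on HF and 1.40, 1.14, 0.691 and 1.73 CPM on NC and was not called (log2 fold change -0.31, adjusted p = 0.597).

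Hepatocyte identity genes were called lower in 3 of 16 and higher in 0, and 8 of the 16 had a positive log2 fold change (median -0.03). Their summed level was 73740, 83380, 84870 and 70010 CPM in HF 1 to HF 4 and 98640, 103800, 98630 and 91350 CPM in NC 1 to NC 4. Without albumin the sum was 36100, 25170, 26310 and 30570 CPM in HF 1 to HF 4 and 30310, 31000, 30460 and 26000 CPM in NC 1 to NC 4, so that the groups overlapped. The list means were -0.06, -0.12, -0.07 and -0.16 in HF 1 to HF 4 and 0.01, 0.00, 0.08 and -0.10 in NC 1 to NC 4. Albumin took 4.87% ± 1.17 (SD, n = 4) of the counts on HF and 6.47% ± 0.321 on NC, with no overlap (exact two-sided permutation p = 0.0286, the smallest possible with 4 against 4, and 0.0714 adjusted over 5 such tests of library composition). HF 1 and HF 4 had the lowest shares, 3.73% and 4.01%, against 5.91% and 5.84% in HF 2 and HF 3. The list had 1 member lower without NC 3. In the edgeR fit Alb fell (log2 fold change -0.50, adjusted p = 0.0303) and was lost without HF 1, HF 4, NC 1, NC 2, NC 3 or NC 4 (adjusted p up to 0.0956). Foxa3, a pioneer transcription factor of hepatocytes, had 43.7, 27.1, 25.6 and 37.9 CPM on HF and 69.9, 74.7, 102 and 73.1 CPM on NC (log2 fold change -1.25, SE 0.22, adjusted p = 0.00214). Hnf4a, the master regulator of the cell type, had 528, 496, 488 and 519 CPM on HF and 576, 693, 827 and 710.3 CPM on NC (log2 fold change -0.47, SE 0.11, adjusted p = 0.0139, with adjusted p = 0.0577 without NC 3 and 0.0739 without HF 2 and HF 3).

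Markers of other tissues differed between HF libraries. Of 7 adipocyte genes 3 were tested, and Cfd had 0.372, 9.64, 10.2 and 3.76 CPM on HF and 0.329, 0.0856, 0.432 and 0.568 CPM on NC, high in HF 2, HF 3 and HF 4 (log2 fold change 4.08, adjusted p = 0.0236). Its call was lost without HF 2, HF 3, NC 1, NC 2 or NC 3 (adjusted p up to 0.0627). Adipoq, which defines fat cells, had 0.409, 0.611, 0.412 and 1.46 CPM on HF and 0.535, 0.400, 0.605 and 0.650 CPM on NC and was not called (log2 fold change 0.38, adjusted p = 0.655). Cela2a, the only acinar gene tested, had 0.743, 3.80, 1.37 and 0.399 CPM on HF and 0.165, 0.114, 0.173 and 0.298 CPM on NC (log2 fold change 3.04, adjusted p = 0.0152, adjusted p = 0.0752 without HF 2 and 0.249 without HF 2 and HF 3), and Ctrb1, another digestive enzyme, had 0, 4.04, 1.68 and 0 CPM on HF and 0, 0.228, 0 and 0 CPM on NC. Red blood cell markers gave 0 calls in 5 by edgeR, with 1 at an unadjusted p under 0.05 and 1 called lower by DESeq2. Smooth muscle and mesothelium gave 0 in 5 by both tools, with 0 at an unadjusted p under 0.05. The part of acinar RNA in other differences of HF 2 and HF 3 was not tested.

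Acute phase proteins, which the liver secretes under inflammation, varied widely within the high fat group. The list of 25 had 3 called higher and 0 lower, with a median of 0.66. The list means were 2.39, -0.20, -0.18 and 1.46 in HF 1 to HF 4 and -0.80, 0.59, 0.66 and -0.44 in NC 1 to NC 4. HF 1 and HF 4 were above all other libraries, HF 2 and HF 3 lay between the normal ones, and NC 2 and NC 3 were above NC 1 and NC 4. Saa1, a serum amyloid, had 5386, 77.2, 71.6 and 2197 CPM on HF and 39.9, 469, 763 and 97.5 CPM on NC, from the highest to nearly the lowest level within the high fat group (log2 fold change 2.50, adjusted p = 0.216). Lcn2, an iron-binding protein of the response, had 1262, 19.2, 21.6 and 273 CPM on HF and 1.77, 35.3, 37.9 and 5.66 CPM on NC (log2 fold change 4.29, adjusted p = 0.0549). Neither was called. Steap4, a metalloreductase, had 1113, 221, 219 and 709 CPM on HF and 90.9, 206, 246 and 108 CPM on NC (log2 fold change 1.80, adjusted p = 0.0286), lost without HF 1, HF 4, NC 1 or NC 4 (adjusted p up to 0.0765). Serpina3m, a protease inhibitor, was higher in all 4 HF libraries, with 769.6, 561, 575 and 578 CPM on HF and 298, 241, 355 and 224 CPM on NC (log2 fold change 1.15, SE 0.15, adjusted p = 0.000115). It shares exon sequence with Serpina3k on the same strand. With HF 2 and HF 3 left out, 20 of the 25 were called higher, and with them averaged 5. The count was 1 without HF 1, HF 4, NC 1 or NC 4 and 5 without HF 2 or HF 3.

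Complement and coagulation genes gave 0 calls in 34 by edgeR, with 6 at an unadjusted p under 0.05, 1 called lower by DESeq2, and 3 called lower by edgeR without HF 1. C3, the central complement protein, had 8896, 4522, 4627 and 7460 CPM on HF and 4664, 6892, 6533 and 5679 CPM on NC (log2 fold change 0.10, adjusted p = 0.79). Of 21 tested hepatokines 3 were called higher and 0 lower. Hfe2, the hemojuvelin that sets iron hormone output, had 57, 68.5, 72.2 and 62.8 CPM on HF and 27.3, 35.9, 36.6 and 29.9 CPM on NC (log2 fold change 1.01, SE 0.12, adjusted p = 7.72e-05). Lect2, a secreted protein known to rise with liver fat, had 86.6, 129, 121 and 97.5 CPM on HF and 86.9, 38.5, 59.8 and 55.6 CPM on NC, with HF 1 just below NC 1 (log2 fold change 0.85, adjusted p = 0.0139, and 0.142 without HF 2 and HF 3). Gdf15, a stress hormone, had 2.38, 1.53, 1.51 and 2.30 CPM on HF and 1.07, 1.48, 1.64 and 0.758 CPM on NC and was not called (log2 fold change 0.64, adjusted p = 0.229).

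Beyond the lists, the rule that names the largest changes gave rises in Serpina7, Smpd3, Stap1 and Cntnap1 and a fall in Adgrf1. Serpina7, the thyroxine-binding globulin, had 57.4, 107, 102 and 84.8 CPM on HF and 18.9, 24.4, 18.4 and 13.2 CPM on NC (log2 fold change 2.23, SE 0.30, adjusted p = 0.00036). Smpd3, a neutral sphingomyelinase, had 12.8, 7.47, 7.83 and 12.6 CPM on HF and 0.412, 1.85, 1.81 and 2.11 CPM on NC, higher in HF 1 and HF 4 (log2 fold change 2.69, SE 0.38, adjusted p = 0.000302). Stap1, an adaptor protein, had 4.12, 9.57, 9.96 and 5.14 CPM on HF and 0.906, 1.20, 0.302 and 0.812 CPM on NC, higher in HF 2 and HF 3 (log2 fold change 3.12, SE 0.43, adjusted p = 0.000313). Cntnap1, an adhesion protein, had 12.3, 5.23, 5.53 and 10.5 CPM on HF and 1.40, 3.05, 1.47 and 1.11 CPM on NC (log2 fold change 2.24, adjusted p = 0.0254), lost without HF 1, HF 4, NC 1, NC 3 or NC 4 (adjusted p up to 0.0728). Adgrf1, an adhesion G protein-coupled receptor, had 0.520, 0.509, 0.515 and 1.46 CPM on HF and 6.67, 9.93, 4.49 and 7.69 CPM on NC (log2 fold change -3.29, SE 0.35, adjusted p = 2.34e-05). Lack of overlap between the diets was a condition of the rule that named these genes.

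Whether the male response differed from the female one was tested by the difference of the 2 diet changes, females minus males, in the same fit. It was called for 100 of 14781 genes (0.677%), a count that was 180 without HF 1, 57 without HF 3, 59 without HF 2, and 57 or 63 without the female normal diet replicate 2 or 4. With HF 2 and HF 3 averaged it was 60. Of the genes named here 7 were called. Insig1 fell more in males, with a difference of 1.07 ± 0.14 (adjusted p = 0.0011) and a female log2 fold change of -0.58. Hsph1 also fell more in males (1.85 ± 0.33, adjusted p = 0.0143, female -0.40), as did Adgrf1 (2.75 ± 0.46, adjusted p = 0.00629, female -0.54). Csad fell in males and was level in females (3.06 ± 0.52, adjusted p = 0.0145, female 0.02). Serpina3m (-1.30 ± 0.21, adjusted p = 0.00582, female -0.15) and Themis (-4.35 ± 0.75, adjusted p = 0.0158, female -0.17) rose in males and were not called in females. Cbs differed too (1.19 ± 0.26, adjusted p = 0.0419), though its male change alone was not called. In females Cbs was called higher (log2 fold change 0.67, adjusted p = 0.0262). In the lists, 4 of 19 clock genes, 2 of 18 heat shock genes, 1 of 25 sterol genes and 0 of 35 type I interferon genes had a called difference. The interferon gamma-inducible GTPases were called higher in 20 of 23 in females and 4 of 23 in males, and 1 of the 23 had a called difference between the sexes.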

How the data were processed

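The 16 poly(A) RNA libraries of whole liver were compared, 4 per sex and diet. The authors deposited RSEM expected counts and TPM per gene. Reads were processed with STAR and RSEM on GRCm39, per the submitters' processing notes; versions, annotation release and strand setting are not given in the sources used here. TPM deposited by the authors are scaled by gene length and library total, and served only as an alternative.

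Expected counts (4.89% of entries not whole) were rounded. Of 78320 genes, 14781 passed filterByExpr and held 99.94% of counts; 98.97% of counts fall in genes with a symbol. Quasi-likelihood models (edgeR 4.0.16, limma 3.58.1, DESeq2 1.42.0, R 4.3.3) used TMM scaling and 1 mean per group over all 16 libraries, robust, two-sided, with Benjamini-Hochberg adjustment over all tested genes. CPM are TMM-scaled, a list mean is the mean log2 CPM (prior count 2) minus the normal diet mean, and the SE is the fold change over the root of the F statistic. Total counts per library set the precision of low genes. On simulated data of 14781 genes for the male diet contrast, 71% of genes changed by 1 on the log2 scale and 85% of those changed by 2 were recovered, with 4.88% of calls false. These shares describe simulated libraries. Whether they hold for a group with libraries as alike as the closest pair of male high fat diet libraries was not tested. The share of false calls among those reported here is therefore not known.

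The members, gene lists and motifs were chosen with earlier results of these data known. Genes named were, per list, the called members with the 2 smallest adjusted p in each direction, preset anchor genes, and the 8 largest rises and 8 largest falls with no overlap and a mean log2 CPM of at least 1; not all of them are printed, and some results are not reported here. Idi1, Per1 and Oasl1 (for their promoters) and Plin2, Fgf21, Por, Gstp1 and Cidea were added after their values were seen. Alternatives were another scaling, no scaling, DESeq2, no filter, only male libraries, a replicate block, limma on log2(TPM + 1) or log2(TPM + 0.1), HF 2 and HF 3 averaged, and each library left out; leaving out HF 2 and HF 3 together was added after the data were seen.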

Additional observations from a re-analysis of the deposited data

Results flagged for a closer look

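In 29 of 414 groups of 4 male libraries, a gene or a list mean had 1 library whose gap to its nearest neighbour exceeded Dixon's 95% critical value for 4 values; chance alone flags about 1 in 20 groups, here 20.7. Genes with a library above the other 3 were Cps1 in NC 2 (4258 CPM), Rpl7a in NC 1 (393 CPM), Rpl6 in NC 1 (334 CPM), Serpina3m in HF 1 (769.6 CPM), Cbr1 in NC 1 (53.4 CPM), Jun in NC 3 (14.8 CPM), Mki67 in NC 2 (4.39 CPM), Il1b in NC 2 (0.970 CPM) and Gpnmb in HF 4 (6.33 CPM). The same held for Cd9 in NC 2 (16.7 CPM), Ighm in HF 3 (14.8 CPM), Jchain in HF 3 (4.33 CPM), Col1a1 in HF 4 (17.3 CPM), Foxa3 in NC 3 (102 CPM), Ctrb1 in NC 2 (0.228 CPM), Adgrf1 in HF 4 (1.46 CPM), Timp1 in NC 2 (0.114 CPM) and Rplp0 in NC 1 (306 CPM). Genes with a library below the other 3 were Pparg in NC 2 (6.59 CPM), Xcr1 in NC 3 (0.130 CPM), Plvap in HF 1 (17.5 CPM) and Cidea in HF 1 (0.409 CPM). List means, on the log2 scale, stood apart for cholesterol synthesis and uptake in NC 2 (-0.23); conjugating enzymes and xenobiotic regulators in NC 1 (0.14); oxidative phosphorylation, nuclear-encoded in NC 1 (0.36). They also did for cytosolic ribosomal proteins in NC 1 (0.37); type I interferon response in NC 3 (-0.13); inflammatory cytokines and chemokines in HF 1 (0.77); adipocytes in HF 1 (0.34). NC 1 held the high value of Rpl7a, Rpl6 and Rplp0 and of the ribosomal and oxidative phosphorylation lists.

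The diet change differed between females and males, by the test of the difference itself, in 7 named genes. The difference, females minus males on the log2 scale, was Insig1 1.07, Csad 3.06, Cbs 1.19, Serpina3m -1.30, Hsph1 1.85, Themis -4.35 and Adgrf1 2.75. The adjusted p-values stand with the comparison of the sexes in the report.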

How the results depend on the processing

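Called genes numbered 1684 in males and 1118 to 1931 with 1 library left out, the lowest without NC 3 (1118). The other alternatives gave 1193 to 2250, the highest by DESeq2, and every one of the 1684 called genes kept its sign in all 18. Averaging HF 2 and HF 3 gave 1193 calls and shared 1150 with the 1684, and leaving both out gave 1193 and shared 827. The difference between the sexes was called for 100 genes, 337 by DESeq2, 60 with HF 2 and HF 3 averaged, and 57 to 180 with 1 library left out; the cause was not tested. Its split of 39 higher and 61 lower in females was 70 and 48 with no scaling. Replicate numbers did not pair the libraries, with correlations of deviations of -0.128, -0.0837, -0.134 and 0.0697, and the fit with a replicate block called 1980 genes in males. Of 111 called genes named, 66 stayed called in every alternative and 79 in every fit without 1 library; 0 changed sign, and 20 of the 47 uncalled were called in some alternative. With no scaling beyond library totals, 14 stellate genes were called higher and 0 ribosomal genes lower. With the block, 59 ribosomal genes were called lower. With 22228115 to 38843167 counts per library, genes near 1 CPM rest on few reads, and markers of rare cells below the filter were not tested.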

Other observations

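3 genes that glucocorticoid hormones are known to induce were chosen after their values were seen, and no list of such genes was tested. Pdk4, which these hormones are also known to induce, rose (log2 fold change 2.67). Fkbp5, a chaperone partner of the hormone receptor, had 38.4, 47, 46.7 and 38.5 CPM on HF and 130.4, 118, 154 and 149.9 CPM on NC (log2 fold change -1.69, SE 0.16, adjusted p = 5.91e-06). Tsc22d3, an anti-inflammatory target, had 47.1, 92.5, 91.3 and 59.1 CPM on HF and 173, 137, 196 and 135 CPM on NC (log2 fold change -1.14, SE 0.23, adjusted p = 0.00405). Klf15, a regulator of amino acid use, had 53.4, 83.2, 81.4 and 48.4 CPM on HF and 141, 132, 108 and 117 CPM on NC (log2 fold change -0.90, SE 0.16, adjusted p = 0.00173). The HF libraries lay below all NC libraries in each of the 3. The receptor itself, Nr3c1, had 93.3, 123, 123 and 134 CPM on HF and 86.7, 94.3, 105 and 109.8 CPM on NC, overlapping, and was not called (log2 fold change 0.26, adjusted p = 0.258).

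Cldn1 and Cldn2, which encode tight junction proteins, were also chosen after their values were seen. Cldn1 had 78.2, 86.4, 83.2 and 81.3 CPM on HF and 20.8, 37.1, 39.4 and 30.8 CPM on NC (log2 fold change 1.36, SE 0.18, adjusted p = 0.000154), and Cldn2 had 174, 156, 154 and 164 CPM on HF and 46, 53.2, 62 and 80.8 CPM on NC (log2 fold change 1.42, SE 0.19, adjusted p = 0.000203), without overlap in either. Ces2a, a carboxylesterase that cleaves esters and stored lipid, had 68.7, 106, 110.4 and 77 CPM on HF and 488, 402, 433 and 416 CPM on NC (log2 fold change -2.27, SE 0.14, adjusted p = 1.71e-08) and has close copies that can share its reads.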
